A study of Danio rerio with 6 samples.

Results

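The genes described here are the cytosolic ribosomal protein genes, read in RNA sequencing (RNAseq) of sorted zebrafish retinal cells. They were taken by name: each row of the expression table whose gene name began with rpl followed by a digit or p, or with rps followed by a digit or a, regardless of case. S6 kinase genes (rps6k), genes of the mitochondrial ribosome (mrpl and mrps) and rows that join several gene names with a comma were left out. This rule found 73 of the 30689 gene rows, with 40 rows counted by name for the large subunit and 32 for the small subunit. The remaining row was RPS19BP1, whose product binds the ribosomal protein Rps19 but is not itself a ribosomal protein. The rows covered 64 protein families, 36 of the large and 28 of the small subunit, and 7 families had more than 1 row. A further 12 ribosomal protein genes lay in comma-joined rows, 10 of them joined to small nucleolar RNAs, and their values are given apart.

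The study used RNAseq of Müller glia (MG), the radial glia of the retina, to look for Tgfb ligands that respond to injury. It also looked there at genes of candidate signaling pathways. The table of the study holds 6 libraries of RNA from GFP+ cells that were purified by FACS from adult zebrafish retinas. The uninjured group has 2 libraries from gfap:GFP fish, in which the glial promoter of gfap drives GFP. The injured group has 2 libraries from retinas taken 2 days after a needle poke (2 dpi). The knockdown group has 2 libraries from retinas that were also poked and taken at 2 dpi and had received a morpholino against apobec2a and apobec2b. All 6 samples carry the label gfap:GFP, whereas the study's text places the injured cells in 1016 tuba1a:GFP fish, a line whose GFP marks injury-responsive cells, so the driver of GFP in the injured samples is uncertain, and for the knockdown samples only the label gives it. The columns of the injured group are named for a control morpholino, and no such name stands on the uninjured columns. Injury, morpholino and possibly the GFP line thus may differ together between uninjured and poked retinas, and their effects cannot be told apart. Below, after injury means only the comparison of the injured with the uninjured libraries. Nothing in the labels says whether the 2 samples of a group came from separate animals, so the p-values below measure only the spread between these samples. Within each group the libraries are named a and b.

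The ribosome is built from a large and a small subunit, each a core of ribosomal RNA dressed with proteins that are made in the cytoplasm, imported into the nucleolus and assembled there in near equal amounts. The mRNAs of nearly all ribosomal proteins in vertebrates begin with a 5′ terminal oligopyrimidine (TOP) motif, which places their translation under the kinase mTOR. Cells that leave rest and prepare to divide usually raise ribosome production, and zebrafish MG divide after a retinal injury.

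Expression is given as FPKM, fragment counts scaled by transcript length and by the mapped fragments of the library, so that levels can be compared between genes. Such values do not show how deeply a library was sequenced. The morpholino targets were looked at first. The row apobec2a stood at 0.15 and 0.41 FPKM in uninjured, 0.25 and 0.51 in injured and 0.39 and 0.38 in knockdown MG, too low to be tested. A row named APOBEC2 (2 of 2), which the table does not tie to apobec2b, stood at 1.12 and 0 FPKM, 8.60 and 8.19, and 16.8 and 15.8, and rose in the knockdown over injured MG by 0.88 on the log2 scale (SE 0.10, adjusted p = 0.0181). A morpholino need not lower the amount of its target RNA, so these values do not check the labels. Of 9 MG marker genes, 8 were above 0 in every group and slc1a3b was at 0 in both uninjured libraries. The 9 genes summed to 2626 and 2762 FPKM in the uninjured, 2319 and 2653.5 in the injured and 2082 and 2109 in the knockdown libraries. After injury 4 of the 8 tested were called higher and 4 lower (limma, adjusted p under 0.05), against 28.8% and 18.4% of all rows. The markers with the highest levels, glula and apoeb, moved in opposite directions, so the sums hide their changes. From uninjured to injured MG glula went from 1196 and 1280 to 466 and 463 FPKM. Over the same libraries apoeb went from 571 and 631 to 1478 and 1762 FPKM. Markers of other cells were present too, so MG as the name of a group stands for all its sorted cells. The summed FPKM of 9 rod genes lay between 14817 and 15490 in the uninjured, 5206 and 7357 in the injured and 5364 and 5576 in the knockdown libraries. That of 9 microglia or macrophage genes lay between 63.0 and 71.8, 247.7 and 270.7, and 19.8 and 30.5, in the same order, and that of 5 pigment epithelium genes between 7.2 and 9.2, 91.0 and 102.2, and 42.7 and 62.2. None of these rod, microglia or pigment epithelium genes was at 0 throughout a group. In such bulk samples, fewer cells of a type and less RNA per cell cannot be told apart.

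Ribosomal protein genes were among the most abundant transcripts of uninjured MG. Their median level was 161.1 FPKM in library a and 155.6 FPKM in library b, and 60 of the 73 rows had a group mean above 100 FPKM. Together they made up 1.18% of the summed FPKM of uninjured library a and 1.16% of that of library b. At 2 dpi the share was 3.97% in both injured libraries, and in the knockdown libraries it was 3.64% and 3.26%. The 3 groups did not overlap, and the injured group stood highest. The large subunit rows accounted for 0.666% and 0.647% in uninjured, 2.22% and 2.2% in injured and 2.03% and 1.81% in knockdown MG. The small subunit rows held 0.516% in both uninjured libraries, then 1.74% and 1.76%, and then 1.61% and 1.45%, so that both subunits followed the same order of groups.

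**Figure D1:**
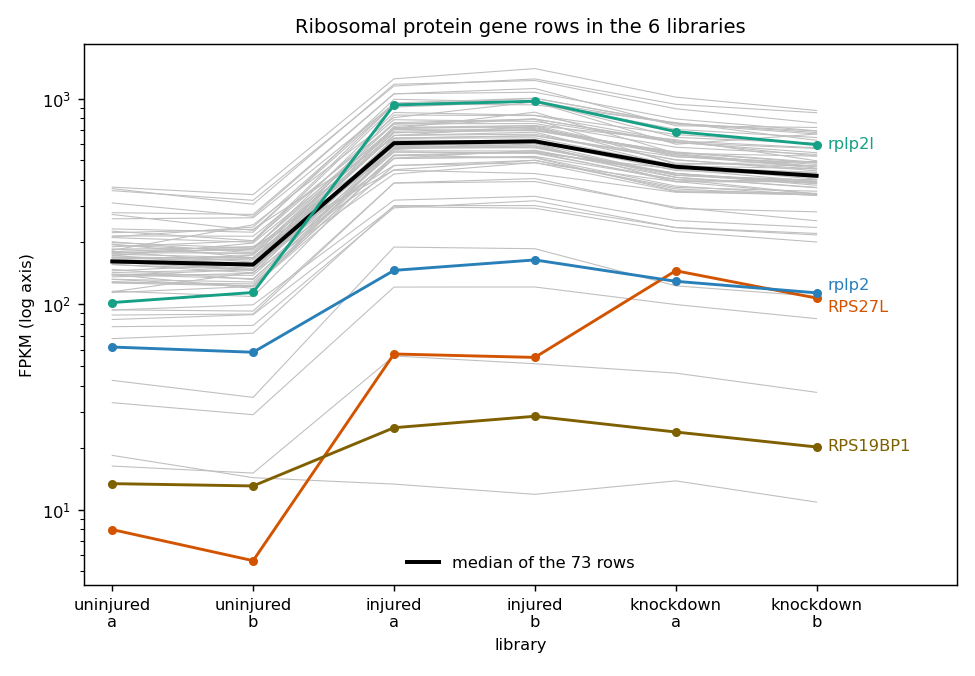
FPKM (log axis) of each of the 73 ribosomal protein gene rows in the 6 libraries, with 1 line per row, the median in black and 4 rows in colour. Nearly all rows were higher in the injured libraries (median 606.5 and 619.2 FPKM) than in the uninjured ones (161.1 and 155.6), and RPS27L was highest in the knockdown libraries.

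Within a group the levels of the rows differed widely, and their order was similar from group to group. In uninjured MG the group means ran from 6.81 FPKM for RPS27L to 355.6 FPKM for rps29, and in injured MG the highest was again rps29, at 1322 FPKM. The coefficient of variation across rows was 44.8% in the uninjured, 44% in the injured and 42.9% in the knockdown group. The 73 rows are not independent and share libraries and gene lengths. Their log2 levels had a Pearson correlation of 0.939 between uninjured and injured MG and of 0.986 between injured and knockdown MG. The Spearman correlations, which compare order alone, were 0.847 and 0.989. The highest levels over all libraries were those of rps29, RPL37A, RPL29, RPL31 and rpl34, with group means in uninjured MG from 275.6 FPKM for RPL31 to 355.6 FPKM for rps29. The 5 lowest included those of RPS27L and rpl7l1, which have more abundant relatives, and of RPS19BP1, which is not a ribosomal protein.

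Ribosomal protein transcripts stood higher as a block in injured than in uninjured MG. Of the 73 rows, 72 rose in injured over uninjured MG, against 28.8% of all 17195 rows tested, and 0 fell, against 18.4% of all rows. The median log2 fold change was 2.00, or 4.01-fold, with quartiles at 1.84 and 2.10, whereas the median of all rows was 0.08. The lowest value of the injured libraries lay above the highest of the uninjured ones in 72 rows, which held for 43.5% of all rows. By the fold rule of the study's methods, a mean at least 2 times higher and above 5 FPKM, 72 rows were higher, against 12% of all rows. At an unadjusted p under 0.05, limma also gave 72 higher and 0 lower, against 33.1% and 22.8% of all rows. The row that was not called lay lower in both injured than in both uninjured libraries, and it was called lower with the libraries scaled to the same total, with or without the 10 highest rows. Adjusted p-values of the 72 rows ran from 0.000857 to 0.00475. With each of the 4 libraries left out in turn, the median of the 73 rows lay between 1.96 and 2.03. That of all rows lay between 0.02 and 0.11. The groups have 2 libraries each, so an exact permutation test of a single row could not go below p = 0.333 (two-sided), and the calls rest on the spread that limma pools over all rows.

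**Figure D2:**
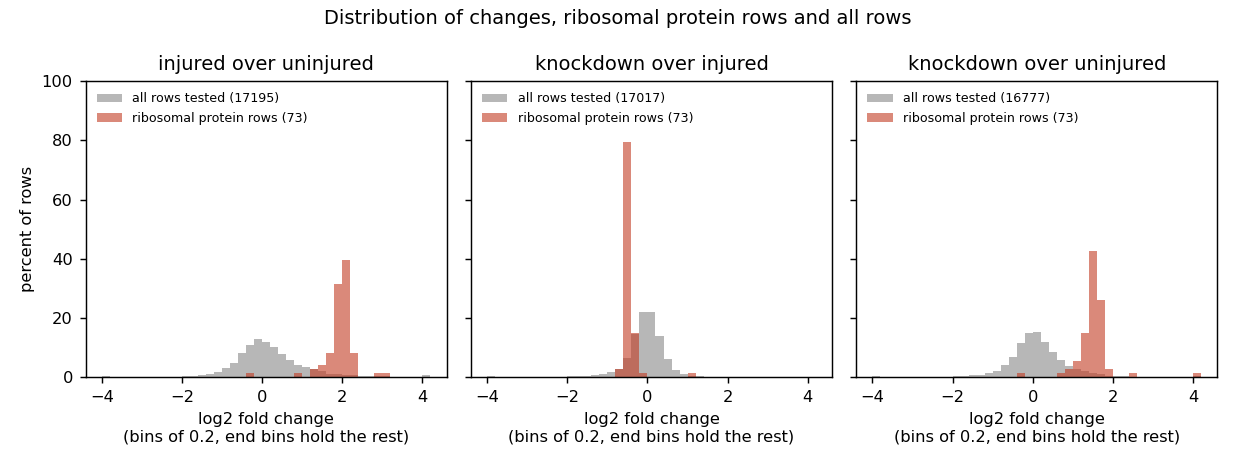
Percent of rows in bins of log2 fold change (limma on log2 of FPKM + 1), for the 73 ribosomal protein rows in red and for all rows tested in grey, in the 3 comparisons. The ribosomal protein rows formed a narrow peak at 2.00 (median) after injury, at −0.46 for knockdown over injured and at 1.53 for knockdown over uninjured, while all rows centred at 0.08, −0.02 and 0.07.

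The scaling of the libraries shifted these values. With the FPKM of each library scaled to the same total, the median of all rows moved from 0.08 to −0.11 and all-row calls from 4960 higher and 3159 lower to 3785 higher and 4858 lower, while 72 of the ribosomal protein rows were again called higher, with a median of 1.77. Over all 16 alternatives the ribosomal protein median lay between 1.72 and 2.00 above that of all rows.

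The change was also uniform in size. A total of 66 rows lay within 0.5 of the median log2 fold change. In their group mean 66 rows were at least 3 times higher and 37 at least 4 times, against 1921 and 1417 of all 17195 rows tested. The large subunit rows had a median of 1.98 and all 40 rose. The small subunit rows had a median of 2.02 and 31 of 32 rose, whereas 28.8% of all rows rose. Of the 7 rows that lay further than 0.5 from the median, 2 were above it, rplp2l and RPS27L, and rps27.2, rplp2, rps27.1 and RPS19BP1 lay below it with the row that was not called.

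**Figure D3:**
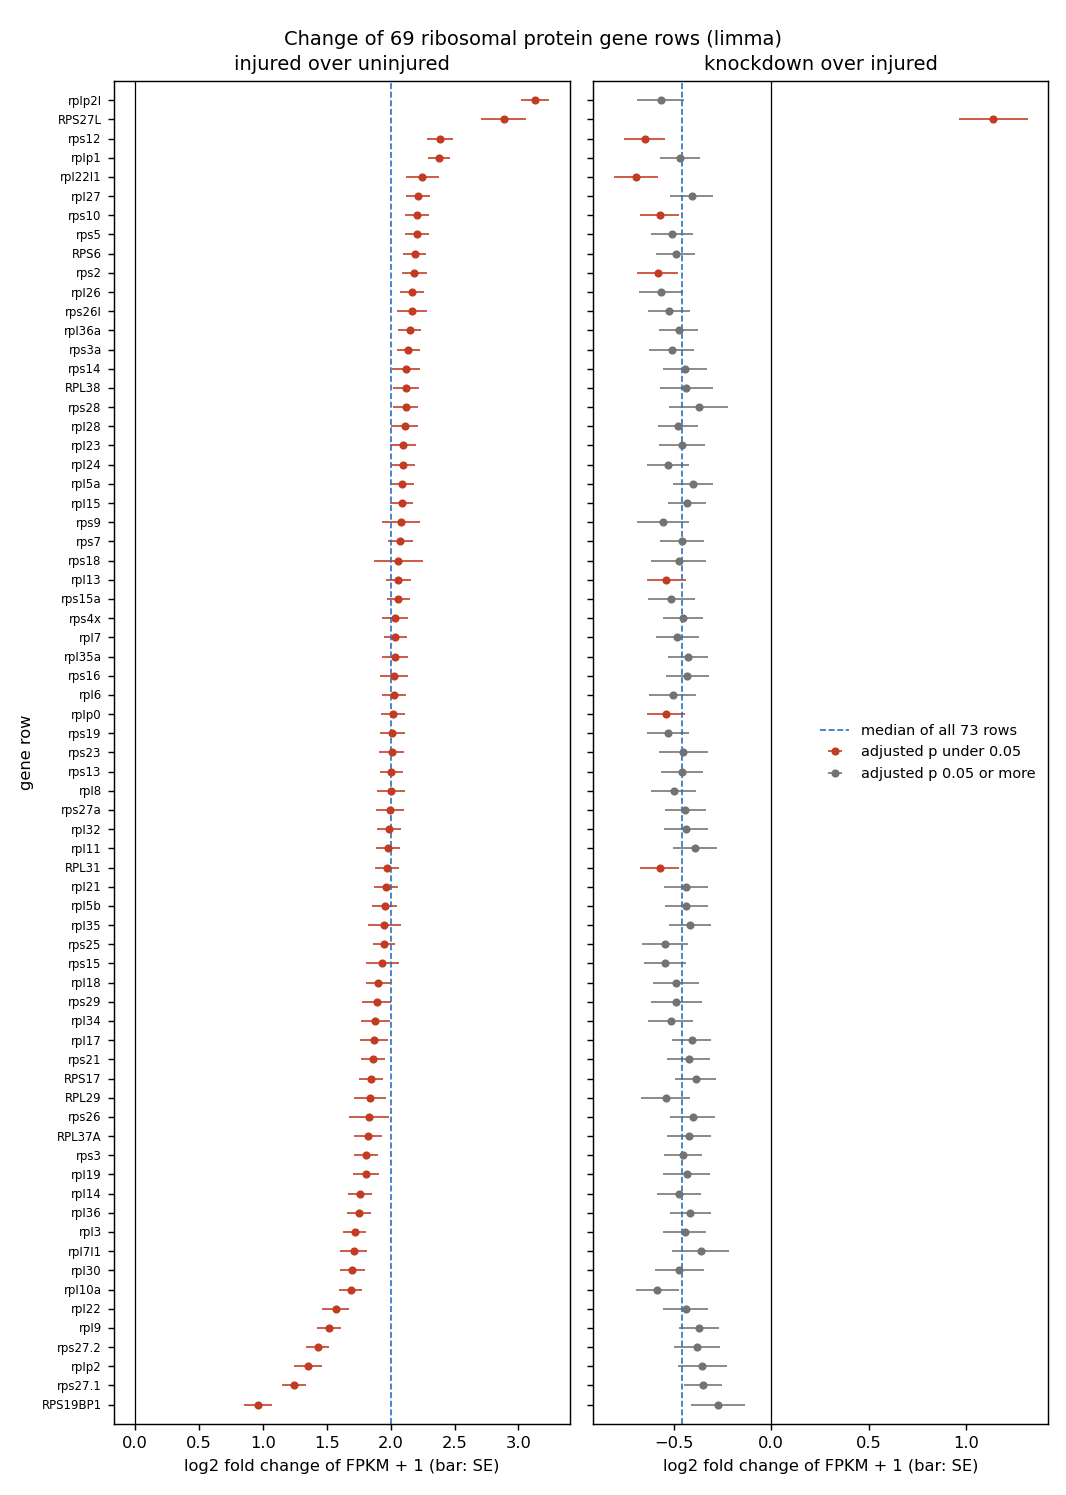
Log2 fold change of FPKM + 1 with its standard error (limma) for 69 of the 73 rows, ordered by the change after injury, with injured over uninjured on the left and knockdown over injured on the right. The row that was not called higher after injury is not among those drawn, so that all 69 shown were called, around a median of 2.00 over the 73 rows (dashed line). In the knockdown RPS27L was called higher and most rows did not pass the test.

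The stalk of the large subunit, the flexible arm of Rplp0, Rplp1 and Rplp2 that recruits the elongation factors, showed both an extreme rise and a small one. Rplp0 anchors the stalk, and rplp0 was at 167 and 164 FPKM in the uninjured, 661 and 685 in the injured and 470.1 and 455 in the knockdown libraries. Its log2 fold change after injury was 2.02 (SE 0.09, adjusted p = 0.00103), close to the median of all ribosomal protein rows. Its partner rplp1 was at 159 and 158 FPKM in the uninjured and 830.4 and 826 in the injured libraries, with a log2 fold change of 2.38 (SE 0.09, adjusted p = 0.000981). The groups did not overlap for either gene.

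Rplp2 is encoded by 2 rows, rplp2 at chr6:49454475-49456852 and rplp2l at chr7:13785984-13795706, as the table lists them on a genome build that is not stated. The row rplp2l was at 102 and 114 FPKM in the uninjured, 931 and 970.3 in the injured and 690.4 and 596 in the knockdown libraries. It had the highest log2 fold change of all 73 rows after injury, 3.13 (SE 0.11, adjusted p = 0.000857). The row rplp2 was at 61.8 and 58.3 FPKM in the uninjured, 146 and 164 in the injured and 129 and 113 in the knockdown libraries, with a log2 fold change of 1.35 (SE 0.11, adjusted p = 0.00247). Both rows rose, but by unequal amounts. Within a library the ratio of rplp2l to rplp2 was 1.65 and 1.95 in uninjured MG, 6.38 and 5.92 in injured MG and 5.35 and 5.26 in the knockdown. The ratio of rplp1 to rplp0 changed much less, from 0.951 and 0.965 to 1.26 and 1.21 and then 1.32 and 1.26.

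**Figure D4:**
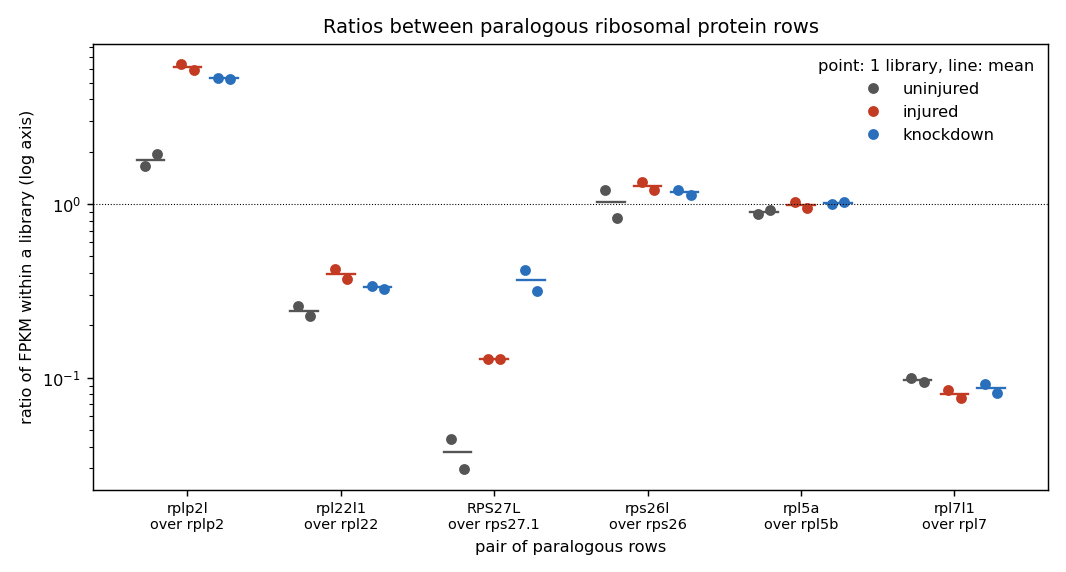
Ratio of FPKM between paralogous rows within each library (log axis), with a point per library, a line at the group mean and a dotted line at equal levels. The ratio of rplp2l to rplp2 stood at 1.65 and 1.95 in the uninjured and at 6.38 and 5.92 in the injured libraries, RPS27L to rps27.1 climbed in both steps.

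Other families with paralogous rows differed in how far their ratio moved. Rpl22 binds RNA in the large subunit, and Rpl22l1 is its paralog. The row rpl22l1 was at 42.5 and 35.1 FPKM in uninjured, 189 and 186 in injured and 123 and 109 in knockdown libraries, a log2 fold change after injury of 2.25 (SE 0.13, adjusted p = 0.00136). Over the same libraries rpl22 was at 163 and 156, 450.3 and 501, and 363 and 338 FPKM, a log2 fold change of 1.57 (SE 0.11, adjusted p = 0.00176). The ratio of rpl22l1 to rpl22 was 0.26 and 0.226 in uninjured, 0.42 and 0.371 in injured and 0.338 and 0.323 in knockdown MG, so that the 3 groups did not overlap and rpl22 was the more abundant in each.

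The ratios of other pairs moved less. The ratio of rpl5a to rpl5b was 0.875 and 0.917, then 1.03 and 0.947, and then 1 and 1.02, lowest in the uninjured libraries, with log2 fold changes after injury of 2.09 for rpl5a and 1.95 for rpl5b. The ratio of rps26l to rps26 was 1.21 and 0.834 in the uninjured libraries, wider apart than in the injured (1.34 and 1.2) or the knockdown libraries (1.2 and 1.13), and the groups overlapped. The row rpl7l1, whose product resembles Rpl7, went from 16.3 and 15.1 FPKM to 55.9 and 51.2 FPKM after injury, and its ratio to rpl7 went from 0.0989 and 0.0949 to 0.0844 and 0.0764, without overlap. Reads that fit several paralogs can be split between them by the counting, and how this was handled is not stated, so values of single paralogs are less certain than those of single-row families.

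The Rps27 family showed the widest divergence. Rps27 is a zinc-binding protein of the small subunit, and its paralog RPS27L is known in human cells as a gene that p53 switches on. The row RPS27L, at chr25:34827001-34835479, was at 7.99 and 5.64 FPKM in the uninjured, 57.1 and 55.0 in the injured and 145 and 107 in the knockdown libraries. Each group lay apart from the others, and the knockdown group was the highest. The log2 fold change after injury was 2.89 (SE 0.18, adjusted p = 0.0015). The related row rps27.1 was at 179.7 and 191 FPKM in the uninjured, 448 and 431 in the injured and 349.9 and 340.1 in the knockdown libraries, and rps27.2 was at 178 and 177, 473 and 486, and 394 and 343 FPKM. Their log2 fold changes after injury, 1.24 (SE 0.10, adjusted p = 0.00221) and 1.43 (SE 0.09, adjusted p = 0.00157), were among the lowest of the rows that rose. RPS27L stood at 0.0445 and 0.0296 of rps27.1 in uninjured MG, at 0.128 in both injured libraries and at 0.415 and 0.314 in the knockdown.

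RPS19BP1, the Rps19-binding protein, had the smallest rise. It was at 13.4 and 13.0 FPKM in the uninjured, 25.02 and 28.4 in the injured and 23.8 and 20.2 in the knockdown libraries. Its log2 fold change after injury was 0.96 (SE 0.11, adjusted p = 0.00475). Rps19 itself, which is mutated in human Diamond-Blackfan anaemia, is encoded by rps19, which went from 132 and 122 FPKM to 512 and 517 FPKM after injury, and its log2 fold change was 2.01 (SE 0.10, adjusted p = 0.00108).

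Among large subunit genes known for roles beside translation, rpl11 and RPL38 rose by close to the median of the rows. Rpl5 and Rpl11 form a complex with 5S ribosomal RNA that in mammals binds Mdm2. The row rpl11 was at 139 and 133 FPKM in uninjured MG, 526 and 551 in injured and 432 and 389 in knockdown MG, with a log2 fold change after injury of 1.98 (SE 0.09, adjusted p = 0.00108). RPL38, which in the mouse embryo is needed for the translation of certain Hox mRNAs, went from 226 and 203 FPKM to 938.5 and 931.5 FPKM after injury, and its log2 fold change was 2.12 (SE 0.10, adjusted p = 0.00109). The product of rpl3 reaches towards the peptidyl transferase centre. This row went from 169 and 167 FPKM to 556 and 555 FPKM in the injured libraries. Its log2 fold change was 1.72 (SE 0.09, adjusted p = 0.00114), below the lower quartile of the 73 rows, 1.845. The groups did not overlap for any of them.

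A further 19 large subunit rows had group means between 86.4 and 250.4 FPKM in uninjured and between 295.0 and 976.2 FPKM in injured MG. Their log2 fold changes after injury ran from 1.70 for rpl30 to 2.17 for rpl26.

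The most abundant large subunit rows rose by slightly less than the median. From uninjured to injured MG, RPL37A went from 356 and 319.7 FPKM to 1149.8 and 1245 FPKM, RPL29 from 364 and 306 to 1173 and 1223, and rpl34 from 310.2 and 267 to 1055 and 1072. Their log2 fold changes were 1.82, 1.84 and 1.88. The row rpl9 rose least of the large subunit rows after rplp2, from 222 and 231 FPKM to 642 and 659 FPKM, with a log2 fold change of 1.52 (SE 0.09, adjusted p = 0.00148). The row rpl27 rose most of the large subunit rows after rplp2l, rplp1 and rpl22l1, with 176 and 185 FPKM against 855 and 829 FPKM and a log2 fold change of 2.22 (SE 0.09, adjusted p = 0.000981).

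Of the small subunit rows, rps12 rose most after RPS27L. Rps12 sits at the beak of the small subunit, and rps12 was at 142 and 147 FPKM in uninjured, 732 and 793 in injured and 477 and 493.5 in knockdown MG. Its log2 fold change after injury was 2.39 (SE 0.10, adjusted p = 0.000981). RPS6, whose product is the classic substrate of the S6 kinases downstream of mTOR, was at 129 and 123 FPKM in uninjured, 572 and 579 in injured and 423 and 396 in knockdown MG, and its log2 fold change after injury was 2.19 (SE 0.09, adjusted p = 0.000981). The row rps29 had the highest level of all, going from 371 and 341 FPKM to 1246 and 1398 FPKM after injury, and its log2 fold change was 1.89 (SE 0.11, adjusted p = 0.00147). The row rps25 was at 185 and 187 FPKM and at 720.0 and 722 FPKM, and rps27a, which encodes a fusion of ubiquitin and Rps27a, was at 201 and 177 FPKM and at 753.5 and 755.5 FPKM. These rows had log2 fold changes of 1.95 and 1.99. A further 16 small subunit rows ran from 1.81 for rps3 to 2.21 for rps10, between group means of 93.1 and 261.3 FPKM in uninjured and of 391.1 and 977.4 FPKM in injured MG.

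The 12 comma-joined rows, which the name rule left out, were read as a check. All 12 were called higher after injury, against 28.8% of all rows, with a median log2 fold change of 2.05. In the knockdown over injured MG 1 of them, the row of rpl37, was called lower, which is 8.33% against 6% of all rows. The row of rpsa, which encodes the laminin receptor homolog of the small subunit, was at 185 and 198 FPKM in uninjured, 848 and 969.8 in injured and 669 and 666 in knockdown MG. With these rows added, 84 of 85 rows were higher after injury. The row of rps20 was uneven between libraries, at 652 and 1619.8 FPKM in the uninjured, 3528 and 4028 in the injured and 1489 and 2298 in the knockdown group. Of the 73 rows, 8 share their listed locus with genes other than small nucleolar RNAs, and without them 64 of 65 rows were higher. Both of these choices of rows were made after seeing the data.

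The apobec2 knockdown group was compared with the injured group, whose columns are named for a control morpholino. The ribosomal protein rows were lower in the knockdown by a smaller step that few rows passed singly. The median log2 fold change was −0.46, or 0.729 of the injured level, against −0.02 for all rows. A negative value was found in 72 of 73 rows, against 8911 of all 17017 rows tested. With quantile normalization or the libraries scaled to the same total 71 rows were negative, with all-row medians of 0.04 and 0.21. The knockdown libraries lay below the injured ones without overlap in 71 rows, against 33% of all 17017 rows tested. At an adjusted p under 0.05, 8 rows fell, which is 11% of them against 6% of all rows, and 1 row rose, against 3.03% of all rows. The median adjusted p of the rows was 0.0779, and at an unadjusted p under 0.05 limma gave 68 lower and 1 higher, against 17.2% and 13.2% of all rows.

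The count of rows that fell changed with the processing. It was 0 with a pseudocount of 0.1, with no filter on low values, with the libraries scaled to the same total with or without the 10 highest rows, and without any 1 of the 4 libraries. Over all rows the lower calls in these settings were 733, 193, 868 and 848, and between 0 and 272 with a library left out. The count was 39 of 73 with a trend in the prior variance, against 7.29% of all rows, and 39 with all 3 groups in the fit, against 8.41%. With libraries scaled to the same total, the median of the rows was −0.19 and that of all rows 0.21, and all-row calls went from 515 higher and 1021 lower to 2572 higher and 868 lower. Over all 16 alternatives the ribosomal protein median lay between 0.24 and 0.50 below that of all rows. The 2 knockdown libraries also differed from each other: library b was below library a in 69 of 73 rows, with a median log2 ratio of −0.15, against a median of 0.00 over all rows tested. In the injured libraries b was below a in 20 of 73 rows.

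The 8 rows that fell included rps12, rpl22l1, rps2, rplp0, rps10, rpl13 and RPL31. The largest fall was that of rpl22l1, from 189 and 186 FPKM to 123 and 109 FPKM, a log2 fold change of −0.69 (SE 0.11, adjusted p = 0.0369). For rps12 it was −0.65 (SE 0.10, adjusted p = 0.0369), from 732 and 793 FPKM to 477 and 493.5 FPKM. The product of rps2 lies at the mRNA entry of the small subunit, and rps2 went from 908 and 966 FPKM to 647 and 605 FPKM, a log2 fold change of −0.58 (SE 0.11, adjusted p = 0.0467). RPL31 went from 1053 and 1118 FPKM to 737 and 723 FPKM, with −0.57 (SE 0.10, adjusted p = 0.0442). For rplp0 the log2 fold change was −0.54 (SE 0.10, adjusted p = 0.0473). In each of these rows the knockdown libraries lay below both injured libraries and above both uninjured ones. This was not particular to them. Of the 73 rows, 71 lay below the injured libraries without overlap, against 33% of all rows. Above the uninjured libraries lay 72, against 41.3% of all rows.

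Rows that just missed the threshold had similar values. The row rpl10a, of the stalk on the other side of the large subunit, had a log2 fold change of −0.58 (SE 0.11, adjusted p = 0.0509), from 584 and 589 FPKM to 414 and 369 FPKM. That of RPS6 was −0.49 (SE 0.10, adjusted p = 0.0592), that of rplp2l −0.57 (SE 0.12, adjusted p = 0.0632) and that of rplp1 −0.47 (SE 0.10, adjusted p = 0.067). Excluding RPS27L, all rows lay within 0.5 of the median.

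RPS27L was the 1 row that rose in the knockdown over injured MG, from 57.1 and 55.0 FPKM to 145 and 107 FPKM, a log2 fold change of 1.14 (SE 0.18, adjusted p = 0.0342). The direction held under all 14 alternatives, with log2 fold changes between 0.92 and 1.40, and the call in 8 of them. It was lost with a pseudocount of 0.1, with no filter and without any 1 of the 4 libraries. With a library left out its adjusted p ran from 0.065 to 0.17.

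Transcripts of some other lists also fell in this comparison, and those of others did not. The 9 microglia or macrophage genes all fell, with a median log2 fold change of −2.89. Of 14 cell cycle genes 12 fell, with a median of −1.16. Their summed FPKM was between 36.2 and 36.3 in uninjured, 245.2 and 274.4 in injured and 108.1 and 121.1 in knockdown libraries. This order of groups was also that of the ribosomal protein share. The 5 pigment epithelium genes had it too, with sums of 7.2 to 9.2, 91.0 to 102.2 and 42.7 to 62.2 FPKM. Of the 5 pigment epithelium genes 3 fell and of 8 cone genes 6 fell, and of all rows 6% fell. By contrast, 0 of 9 rod genes and 0 of 11 inner retinal neuron genes were called, with medians of 0.05 and 0.035. Of 9 MG marker genes 1 rose and 2 fell, with a median of 0.02. After injury, 7 of the 9 microglia genes, 14 of 14 cell cycle genes and 5 of 5 pigment epithelium genes rose, and 9 of 9 rod genes fell. Of the 8 cone genes 2 rose and 3 fell, and of all rows 28.8% rose and 18.4% fell. The part of any of these cells in the ribosomal protein values was not tested.

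Compared with uninjured MG, injured MG of the knockdown group still had high ribosomal protein transcripts. A total of 72 rows rose, against 22.1% of all 16777 rows tested, and 0 fell by limma, adjusted or at an unadjusted p under 0.05, against 13.5% and 18.8% of all rows. The median log2 fold change was 1.53, or 2.89-fold, against 0.07 for all rows, and 72 rows did not overlap, against 41.3% of all rows. With quantile normalization all-row calls went from 3702 higher and 2257 lower to 2915 and 3086, and 72 ribosomal protein rows were again higher, with a median of 1.31. With no filter on low values 69 of the 73 rows were called higher, with all-row calls of 2104 higher and 1265 lower. Fewer than 72 were also called in some fits with a library left out. The highest value was that of RPS27L, 4.02 (SE 0.23, adjusted p = 0.00191), followed by rplp2l with 2.57 (SE 0.13, adjusted p = 0.00162). This comparison shares its libraries with the other comparisons and is no independent repeat of them. With each of the 4 libraries left out in turn, the median of the ribosomal protein rows lay between 1.46 and 1.61. That of all rows lay between 0.04 and 0.09.

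Ribosomal proteins whose names fall outside the rule gave 3 rises in 4 after injury, against 28.8% of all rows. The gene faua encodes a ribosomal protein fused to a ubiquitin-like protein, and gnb2l1 encodes Rack1, a scaffold on the small subunit. In uninjured and injured MG, faua was at 145 and 142 and at 521 and 546 FPKM, and gnb2l1 at 112 and 113 and at 515 and 524 FPKM, with log2 fold changes of 1.89 and 2.202. The paralog faub was at 12.4 and 9.10 FPKM and at 9.45 and 10.5 FPKM, with a log2 fold change of −0.08 (SE 0.17, adjusted p = 0.716). None of the 4 was called in the knockdown over injured MG, where their median was −0.43 and all 4 were lower at an unadjusted p under 0.05 (limma), against 17.2% of all rows.

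**Figure D5:**
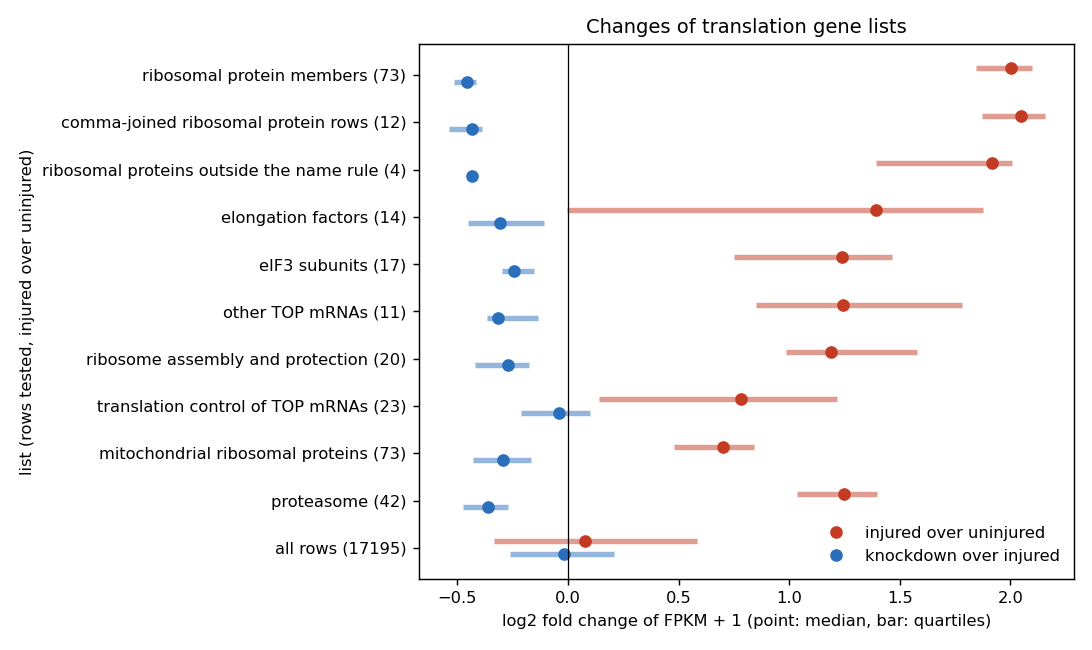
Median (point) and quartiles (bar) of the log2 fold change of FPKM + 1 for translation gene lists, with injured over uninjured in red and knockdown over injured in blue, and the number of rows tested beside each name. The 73 ribosomal protein rows had a median of 2.00 and quartiles of 1.84 and 2.10 after injury, the proteasome 1.25, mitochondrial ribosomal proteins 0.70 and all rows 0.08.

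The rest of the translation machinery changed in the same direction for most genes, by less and less evenly. Of all rows, 28.8% rose and 18.4% fell after injury. Of 14 elongation factor rows 9 rose and 2 fell after injury, with a median log2 fold change of 1.39 and an interquartile range of 1.88, against 0.25 for the ribosomal protein rows. The paralogs of Eef1a, which brings aminoacyl tRNA to the ribosome, divided: eef1a1l1 went from 237 and 222 FPKM to 1812 and 1790.45 FPKM, a log2 fold change of 2.97 (SE 0.10, adjusted p = 0.000806), whereas eef1a1b went from 69.6 and 68.7 to 37.4 and 33.2 FPKM, with −0.95 (SE 0.11, adjusted p = 0.00455), and eef1a1a from 308 and 306 to 218 and 217 FPKM, with −0.50 (SE 0.09, adjusted p = 0.015). The translocation factor eef2b rose from 109 and 106 to 496 and 486 FPKM, a log2 fold change of 2.18 (SE 0.09, adjusted p = 0.000981). Of 17 rows for subunits of eIF3, the initiation factor that holds the small subunit, 14 rose and 1 fell, with a median of 1.24. Their interquartile range was 0.71.

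Of 11 other genes with TOP mRNAs or related to them, 9 rose and 0 fell, with a median of 1.24 and the highest value for npm1a, which encodes a nucleolar chaperone and went from 17.1 and 15.9 to 140.1 and 143 FPKM, a log2 fold change of 3.03 (SE 0.10, adjusted p = 0.000806). At an unadjusted p under 0.05, limma also gave 0 lower in this list and in the 3 lists that follow, against 22.8% of all rows. Of 20 genes for ribosome assembly and protection, RPS19BP1 among them, 19 rose and 0 fell, with a median of 1.19. Mitochondrial ribosomal protein genes, which encode the separate ribosome of that organelle, rose in 55 of 73 rows and fell in 0, with a median of 0.70. Proteasome subunit genes rose in 42 of 42 rows tested and fell in 0, with a median of 1.25. The interquartile ranges of the mitochondrial and proteasome lists were 0.37 and 0.36, and that of the ribosomal protein rows was 0.25. The shares of all rows that rose and fell were 28.8% and 18.4%. None of the differences between these lists and the ribosomal protein rows was tested.

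A list of genes for the control of TOP mRNA translation, which also held the transcription factor genes myca, mycb, mycn and mych, did not move as a block. After injury 14 of 23 rose and 3 fell, against 28.8% and 18.4% of all rows. The kinase gene mtor went from 6.62 and 6.41 FPKM to 7.82 and 7.56 FPKM, with a log2 fold change of 0.21 (SE 0.09, adjusted p = 0.131). The myc family gene mych had the highest rise, from 2.03 and 1.51 to 79.1 and 77.1 FPKM, a log2 fold change of 4.84 (SE 0.13, adjusted p = 0.000756). Of the 23 genes of this list, 1 rose and 1 fell in the knockdown over injured MG, against 3.03% and 6% of all rows. The S6 kinase gene rps6kb1a went from 7.79 and 8.15 to 12.6 and 12.8 FPKM, a log2 fold change of 0.61 (SE 0.10, adjusted p = 0.0369), and eif4eb, a cap-binding protein gene, from 4.85 and 5 to 2.93 and 3.13 FPKM, with −0.56 (SE 0.10, adjusted p = 0.0455). In the knockdown over injured MG the medians of elongation factors, eIF3 subunits, mitochondrial ribosomal proteins and the proteasome were −0.31, −0.24, −0.29 and −0.36. In these lists 0 of 13, 0 of 17, 2 of 73 and 3 of 42 rows fell, against 6% of all rows. At an unadjusted p under 0.05, limma gave 7, 4, 32 and 25 lower rows in these lists, against the 17.2% of all rows.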

How the data were processed

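RNAseq reads were processed by the authors, who deposited a table of FPKM by gene, with a column for each library. Per the labels, CASAVA, TopHat and Bowtie2 were used, with no versions. The genome build and annotation are not given in the sources used here. The authors' means, fold changes, p-values and q-values were not used, nor were 6 further per-library columns that carry the names of the same groups. The FPKM values are rounded to 0.01. Each of 30689 gene rows stands 3 times in the table and was read once. Of the 73 member symbols, 72 were found in RefSeq GRCz12tu. Sequences were not used here.

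A row was tested where 2 or more of the 4 libraries compared reached 1 FPKM, with limma 3.58.1 (R 4.3.3; lmFit and eBayes) on log2(FPKM + 1), which understates changes of low genes, with Benjamini-Hochberg adjustment over all rows tested and a threshold of 0.05. All 73 rows passed this filter in each comparison. The steps were tested on simulated data. Python 3.11.15, NumPy 2.4.6, pandas 2.3.3 and Matplotlib 3.10.9 were used otherwise. The members and gene lists were chosen with earlier results of these data known. Rows were named by rule: stalk genes, paralogs, the 6 highest and 6 lowest changes per comparison, the 5 highest and 5 lowest levels, rows called against the majority, and genes known for other roles. In the other translation lists, called genes with the largest change were named. Further names (rps10, rpl13, eef2b, eef1a1a, eef1a1b, mtor, faua, faub, gnb2l1, rpl26, rpl30, rps3, glula, apoeb and the rows of rps20 and rpl37) were chosen after their values were seen. Some rows that the rule names are not reported here. Alternatives were another pseudocount, no filter or a group mean above 5 FPKM, quantile, median of ratios and same-total scaling, a variance trend, all 3 groups in the fit, rows of a symbol summed, and leaving out each library, where the lone library of a group is assumed to vary like the others.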

Additional observations from a re-analysis of the deposited data

How the results depend on the processing

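For injured over uninjured MG, 72 rows were called higher under every alternative, and the median moved to 1.61 with quantile normalization, 1.77 with the same total and 1.73 with the same total without the 10 highest rows. With both of these totals 1 row was called lower. For knockdown over injured MG, the rows called lower were 0 with a pseudocount of 0.1, no filter, the same total, the same total without the 10 highest rows and any library left out (range 0 to 0), 1 with quantile normalization, and 39 with a variance trend or all 3 groups in the fit. The row called higher, RPS27L, was called in 0 with a pseudocount of 0.1, no filter and any library left out (0 to 0). The median there moved to −0.20 with quantile normalization, −0.19 with the same total and −0.21 with the same total without the 10 highest rows. For knockdown over uninjured MG the median was 1.31 with quantile normalization, and 69 rows were called higher with no filter. Without the 10 highest rows in the total, the share of ribosomal protein FPKM was 2.19% and 2.07% in uninjured, 6.81% and 7.15% in injured and 6.24% and 5.74% in knockdown libraries, and without the 5 highest ribosomal protein rows it was 1.01% and 1.01%, 3.47% and 3.45%, and 3.18% and 2.85%, by construction. The cause of the other shifts was not tested.

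No paired analysis was possible because the columns carry no replicate number of the labels. Depth is unknown, so the precision of low rows cannot be given.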
